A study of Mus musculus with 12 samples.

Results

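The genes described here build, bind or regulate the non-muscle cytoskeleton: actins, the Arp2/3 complex, actin monomer-binding, severing and capping proteins, cross-linkers, contractile proteins, membrane linkers, tubulins and lamins. They were taken by gene symbol alone, with no use of their signal, from the annotation of the array's probe sets, each a group of short probes for 1 transcript. The rule took 49 of the 5599 genes that had a probe set naming 1 gene, with 66 probe sets between them. Of these 49 genes, 41 were bright enough to be tested, among 3477 genes tested in all. The other 8 were Actr1a, Actr6, Cflar, Cnn1, Lmnb1, Tubg1, Tubgcp3 and Tubgcp4, with signals from 39.6 (Actr1a) to 620.1 (Tubg1) on single arrays. Cflar, a regulator of caspase activation, Actr6, a nuclear protein, and Actr1a, a subunit of the dynein activator dynactin, came in through the name pattern. A further 3 probe sets named a tubulin or an Arp2/3 gene together with other genes and were left out of the tests. Vimentin, the filamins and Myl6 were not analysed here.

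The study followed a thermal injury of mouse skin over time. Total RNA of murine skin was hybridised to 12 Affymetrix arrays, 3 for each of 4 groups: 0 hours, 2 hours, 3 days and 14 days after the injury. The labels give no strain, age, sex or genotype and no second agent, and do not say whether the skin at 0 hours had been burnt. They do not say that the 3 repeats of a time point came from separate mice, so the p-values speak of how far these samples vary, and that variation may be technical only.

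Actin filaments are assembled from globular actin monomers, which thymosins hold in reserve and profilins deliver to growing ends. The Arp2/3 complex starts new branches on existing filaments, capping proteins stop growth at filament ends, and cofilins cut and disassemble old filaments. Non-muscle myosin pulls on the filaments, talin and vinculin tie them to adhesions, and ezrin and moesin tie them to the plasma membrane. Microtubules are polymers of alpha- and beta-tubulin, and lamins line the inside of the nucleus. In a healing wound this machinery serves the crawling of keratinocytes, fibroblasts and leukocytes and the contraction of the wound bed.

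Many actin genes carry a CArG box, the 10-base element bound by serum response factor, whose coactivators respond to the pool of free actin monomers. The promoters that hold one are shown because this element is a known link between actin assembly and the expression of actin genes. RefSeq promoters (GRCm38.p6; 250 bases before to 50 bases after a gene's start) were matched by symbol for 43 of the 49 genes, as 49 promoters. No promoter was matched for Actb, Actg2, Lmnb1, Tagln, Tubb6 and Tubg1, so these genes were not searched for a box. A CArG box lay in 5 of the 49 promoters (10.2%) and in 535 of all 32851 promoters in the same table (1.63%), searched on both strands. The 5 are printed 5′ to 3′ on the strand of the gene, with the box in capitals and up to 25 bases on either side.
Actg1, chr11:120348551-120348610, minus strand: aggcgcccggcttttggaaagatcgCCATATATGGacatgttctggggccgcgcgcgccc
Arpc4, chr6:113377863-113377897, plus strand: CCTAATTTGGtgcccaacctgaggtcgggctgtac
Cnn2, chr10:79988519-79988578, plus strand: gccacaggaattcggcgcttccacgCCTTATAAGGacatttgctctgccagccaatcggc
Myl9, chr2:156775278-156775337, plus strand: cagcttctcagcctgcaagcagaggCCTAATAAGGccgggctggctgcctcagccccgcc
Vcl, chr14:20929148-20929205, plus strand: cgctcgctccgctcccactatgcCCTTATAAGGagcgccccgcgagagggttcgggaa

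The box began 90 bases before the start of Actg1, 250 before Arpc4, 56 before Cnn2, 161 before Myl9 and 227 before Vcl. A match is a description of these letters, not a binding site shown here. Another motif, GAANNTTC, a core of the heat shock element, was in 3 of the 49 promoters (6.12%; Actr3, Arpc2 and Tmsb10) and in 7.86% of all promoters. Of the 5 genes with a CArG box, Vcl rose at 2 hours, Cnn2 at 3 days and Arpc4 at 3 and 14 days in the tests given below, and Actg1 and Myl9 passed no test between 2 time points. Differences between their time courses were not tested.

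The median signal of an array lay between 448.4 and 496.4, and the trimmed means of the arrays deviated by at most 8.56% from their average. That largest deviation was on 0 hours replicate 3, which was dimmer, and every other array deviated by 1.66% or less. The mean rank correlation of 0 hours replicate 3 with the other arrays, 0.851, was also the lowest. Rank correlations were 0.876 to 0.960 between arrays of 1 time point and 0.803 to 0.940 between time points. The tissue label was met by epidermal keratinocyte markers, whose mean log2 signal was 12.43 ± 0.20 (SD, n = 3) at 0 hours and 13.17 ± 0.20 at 14 days, where 3 of the 6 tested rose. Of 6 fibroblast markers tested 3 fell at 2 hours, when their mean log2 signal went from 13.43 to 13.05. In addition, 16 skeletal muscle markers were also bright. Their mean log2 signal was 13.98 ± 0.38 at 0 hours (13.66 to 14.40 on single arrays), 13.54 ± 0.10 at 2 hours (13.43 to 13.63), 12.72 ± 0.64 at 3 days (12.002 to 13.210) and 12.91 ± 0.29 at 14 days (12.57 to 13.10), and 12 of the 16 fell at 3 days and 10 at 14 days. All 11 macrophage markers tested rose at 3 days and 1, Ctss, rose at 14 days. The mean log2 signal of these markers was 9.73 ± 0.13 on the 0 hours arrays (9.59 to 9.84), 9.83 ± 0.36 at 2 hours (9.57 to 10.24), 11.57 ± 0.33 at 3 days (11.28 to 11.93) and 10.21 ± 0.08 at 14 days (10.14 to 10.29). Of 7 listed endothelium markers and 7 listed smooth muscle and pericyte markers, 2 each were bright enough to be tested. The log2 ratio of the 3′ to the 5′ Gapdh control probe set, a measure of RNA integrity, went from a mean of 1.99 ± 0.29 at 0 hours to 1.54 ± 0.46 (2 hours), then 0.52 ± 0.50 (3 days) and 0.21 ± 0.08 (14 days). The same ratio for the beta-actin controls did not follow it and was lowest at 0 hours. Its means were 0.01 ± 0.21 (0 hours), 0.74 ± 0.54 (2 hours), 0.23 ± 0.11 (3 days) and 0.35 ± 0.07 (14 days). The log2 ratio of the 3′ to the middle beta-actin control, however, fell over the time points as the Gapdh ratio did. Its means were 2.77 ± 0.35 (0 hours), 1.99 ± 0.57 (2 hours), 1.19 ± 1.05 (3 days) and 1.07 ± 0.23 (14 days). In a fit with either the Gapdh ratio or the muscle marker signal as a covariate, 0 of the 41 genes were called at 3 or at 14 days (limma; 4 at 3 days and 2 at 14 days had an unadjusted p under 0.05 with the Gapdh ratio, and 4 and 4 with the muscle signal). Over all 3477 genes the Gapdh fit called 4 at 3 days and 2 at 14 days. For the muscle fit the count over all genes is not given here. Both measures moved with the time point, so the lost calls cannot be read as a result about the 41 genes. Of the 28 changes called at 3 and 14 days, 10 stayed within 1.5 times of their size with the Gapdh ratio, 17 were smaller than that and 1 was larger, and with the muscle signal 9 stayed within it, 18 were smaller and 1, Tubb2a, changed sign. Tmsb4x at 3 days was 1.10 without a covariate, 0.90 beside the Gapdh ratio and 0.89 beside the muscle signal, and Tubb5 at 14 days 1.12, 0.79 and 0.92, whereas Capg at 3 days was 0.68, 0.56 and 0.08. Myh9 at 14 days was 1.57, 0.49 and 1.44, and Actb at 14 days -0.87, -1.36 and -0.86. The part of the macrophage, keratinocyte and fibroblast marker signals in the results was not tested. In whole skin, more or fewer cells of a type and more or less RNA per cell cannot be told apart.

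The first question the time course puts is which cytoskeleton genes differed from 0 hours, and when. At 2 hours 4 of the 41 genes rose and 0 fell: Tmsb4x, which binds actin monomers, Actr3 of the Arp2/3 complex, the membrane linker Ezr and the adhesion protein Vcl, by 1.66- to 1.81-fold. At 3 days 15 rose, by 1.60- to 2.95-fold, and 1 fell. At 14 days 10 rose, by 1.54- to 2.96-fold, and 2 fell. A gene was called where the limma test, with Benjamini-Hochberg adjustment over all 3477 genes, gave an adjusted p under 0.05.

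The shares of the 41 genes called higher were 9.76% at 2 hours, 36.6% at 3 days and 24.4% at 14 days. Among all genes tested, 4% were called higher at 2 hours, 8.89% at 3 days and 6.9% at 14 days. Called lower were 0% of the 41 against 1.67% of all genes at 2 hours, 2.44% against 4.4% at 3 days and 4.88% against 3.25% at 14 days. In either direction, 5.67%, 13.3% and 10.2% of all genes were called at 2 hours, 3 days and 14 days. The share called higher was thus above that of all genes at each time, while the share called lower was under it at 2 hours and 3 days and above it at 14 days, on 0, 1 and 2 genes. The median log2 change of the 41 genes was 0.17 at 2 hours, 0.34 at 3 days and 0.36 at 14 days, against 0.05, 0.02 and 0.05 for all genes, and 27, 28 and 30 of the 41 were above 0. Of all 3477 genes, 1898, 1800 and 1942 were above 0. These 3 comparisons share the 0 hours arrays.

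**Figure D1:**
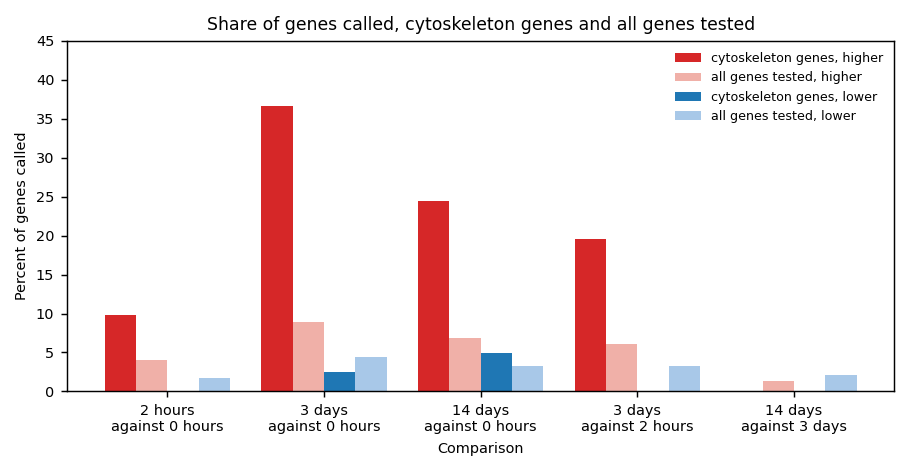
Percent of genes called higher (red) or lower (blue) in each of the 5 comparisons, for the 41 cytoskeleton genes (dark bars) and for all 3477 genes tested (pale bars), limma adjusted p under 0.05. The tallest bar is 36.6% called higher at 3 days against 0 hours, where the bar for all genes stands at 8.89%.

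The groups of 3 arrays did not overlap for 20 genes higher and 5 lower at 3 days (48.8% and 12.2%, against 16.6% and 12% of all genes). At 14 days this held for 19 higher and 5 lower (46.3% and 12.2%, against 17.4% and 11.7%), and at 2 hours for 8 higher and 2 lower (19.5% and 4.88%, against 13.6% and 9.78%). From 2 hours to 3 days the groups did not overlap for 13 genes higher and 8 lower (31.7% and 19.5%, against 16.7% and 18.5%), and from 3 to 14 days for 4 and 4 (9.76% each, against 10.7% and 9%). Of the 41 genes, 36 were above the pooled median signal on all 12 arrays, so that the filter on dim probe sets could not have chosen them for a difference. Among these 36, 4 rose at 2 hours, 14 rose and 1 fell at 3 days, and 10 rose and 2 fell at 14 days. The share among all genes above the median on all 12 arrays was not computed, so these counts have no background beside them. The other 5 (Arpc5, Cnn2, Pfn1, Pfn2 and Tuba4a) were under the median on some arrays.

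The second question is when the level moved. From 2 hours to 3 days 8 of the 41 genes rose and 0 fell (19.5% higher, against 6.1% of all genes, of which 3.31% fell and 9.4% were called in either direction). All 8, Arpc4, Capg, Cfl1, Msn, Myh9, Tagln2, Tmsb10 and Tubb5, were also among the 15 that rose from 0 hours to 3 days. From 3 to 14 days 0 of the 41 were called (limma; 2 had an unadjusted p under 0.05), while 3.39% of all genes were, 1.29% higher and 2.1% lower. The median log2 change of the 41 was 0.14 from 2 hours to 3 days and -0.10 from 3 to 14 days, against -0.03 and 0.05 for all genes. An F-test over the 4 time points called 20 of the 41 (48.8%), against 21.2% of all genes.

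Both 3 and 14 days shared 10 called genes, 6 were called at 3 days but not at 14, and 2, Actb and Tubb3, at 14 days but not at 3. Tmsb4x was the 1 gene called at 2 hours, 3 days and 14 days. A call at 1 time and none at another does not show that the times differ, since 0 genes were called between 3 and 14 days.

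**Figure D2:**
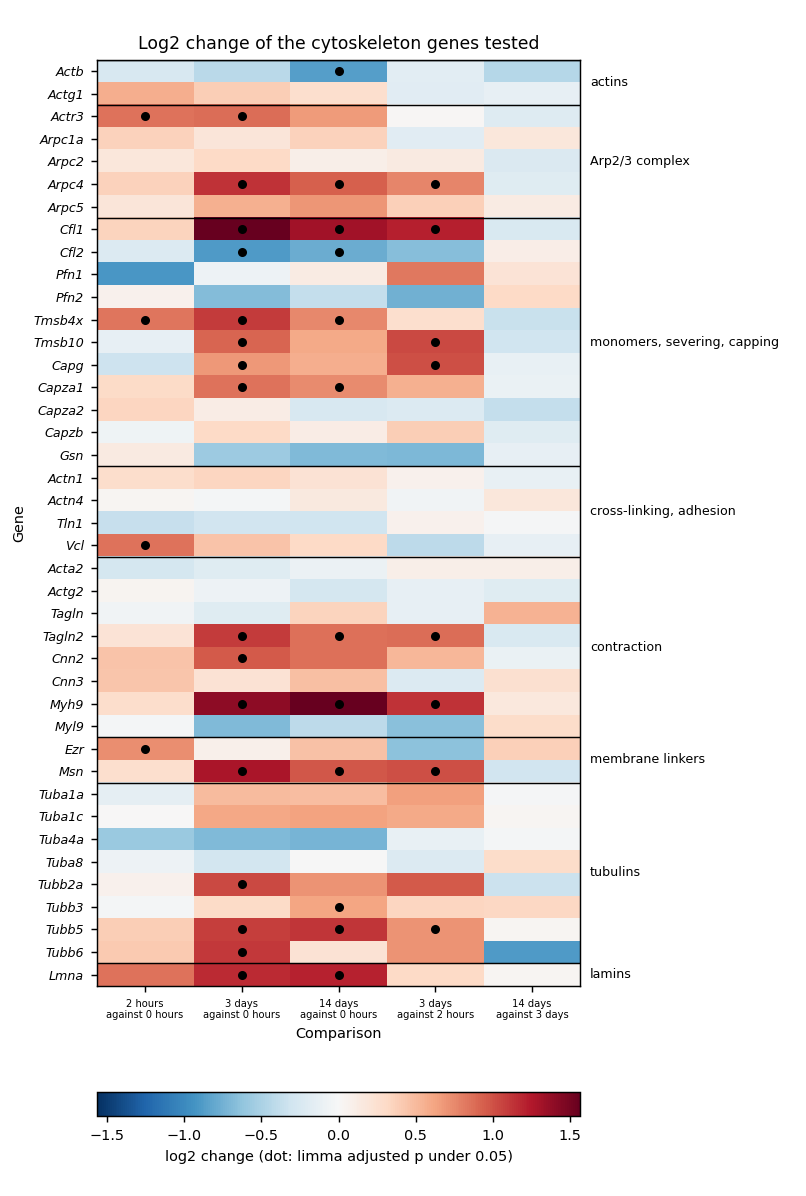
Log2 change of each of the 41 genes tested (rows, grouped by role) in the 5 comparisons (columns), red higher and blue lower at the later time, with a dot where the limma adjusted p was under 0.05. The 3 days column holds 16 dots and the 14 days column 12, and the last column, 14 against 3 days, holds none.

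These counts leaned on single arrays. The count at 2 hours was 0 without 0 hours replicate 1 or 2 hours replicate 3 (limma; 8 and 7 genes had an unadjusted p under 0.05), 1 without 0 hours replicate 3, 2 hours replicate 1 or 2 hours replicate 2, and 2 without 3 days replicate 2 or 14 days replicate 3. Where the count at 2 hours was 1, the gene was Tmsb4x without 0 hours replicate 3 or 2 hours replicate 1. Without 2 hours replicate 2 it was Lmna, which is not among the 4 called with all arrays. The count at 3 days was 8 without 3 days replicate 3. The count at 14 days was 3 without 14 days replicate 1, 4 without 0 hours replicate 1 and 7 without 14 days replicate 3. From 2 hours to 3 days the count was 0 without 3 days replicate 3 (limma; 15 genes had an unadjusted p under 0.05), 1 if 3 days replicate 2 or 2 hours replicate 2 was left out, and 2 if 2 hours replicate 3 was. Of 40 single calls, 9 passed with every array left out in turn and under every alternative other than the covariates: Arpc4, Cfl1, Msn, Tagln2, Tmsb4x, Tubb5 and Tubb6 at 3 days, and Myh9 and Tubb5 at 14 days.

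Both actins of non-muscle cells were tested: on the tested probe sets Actb fell at 14 days and Actg1 was not called at any time. The beta-actin gene Actb, a usual loading control, had signals of 8016, 8639 and 6442 at 0 hours (replicates 1 to 3, as in every list below), 6811, 5366 and 7224 at 2 hours, 4514, 6706 and 6136 at 3 days and 3535, 4667 and 4453 at 14 days. All 14 days arrays were below all 0 hours arrays. Actb fell by 0.87 ± 0.21 (log2 ± SE, n = 3 against 3) to 14 days, 1.82-fold lower, with an adjusted p of 0.02 (limma). This call was lost without 0 hours replicate 1 (adjusted p = 0.061) or 14 days replicate 1 (0.092). The cytoplasmic gamma-actin gene Actg1 had signals of 16822, 18159 and 14820.4 at 0 hours, 23884, 26047 and 23768 at 2 hours, 21032, 22757 and 21210.4 at 3 days and 22798, 18129.6 and 18727 at 14 days. Its 2 hours and 3 days arrays were above all 0 hours arrays, but its log2 changes of 0.57 ± 0.17 (adjusted p = 0.064), 0.39 (0.14) and 0.26 at 2 hours, 3 days and 14 days were not called. The 2 hours change of Actg1 was called with trended and robust variance, with no filter and without 0 hours replicate 2.

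The Actb probe sets did not move together. The tested one is marked by the array maker as shared by a gene family and the second as shared by several transcripts, so both may hold signal of other actins. Besides the tested one the array carries a second ordinary probe set and array control probe sets against the 5′ end, the middle and the 3′ end of the transcript. The second ordinary probe set had 8619, 7329.6 and 5732 at 0 hours, 4467, 4139.7 and 3156 at 3 days and 4514, 3874 and 3991 at 14 days. Every 3 and 14 days array lay under every 0 hours array, and this probe set fell by 0.88 ± 0.21 at 3 days (adjusted p = 0.015) and by 0.79 ± 0.21 at 14 days (0.028), tested with each probe set on its own. The control probe set for the middle had 1954, 1588 and 1739.8 at 0 hours, 2359.5, 9389 and 6288 at 2 hours, 2501, 17938 and 28122 at 3 days and 6909, 16299 and 12470.5 at 14 days. Its 3 and 14 days arrays were above all 0 hours arrays, with 3 days replicate 1 far below its group, and it rose 6.16-fold at 3 days (2.62 ± 0.69, adjusted p = 0.022) and 6.38-fold at 14 days (2.67 ± 0.69, 0.023). The 3′ control changed by 1.04 and 0.98 at 3 and 14 days (adjusted p = 0.074 and 0.10) and the 5′ control by 0.82 and 0.63 (0.15 and 0.28).

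The direction for Actb thus depended on the probe set, with ordinary ones lower and control ones higher. The log2 ratio of the 3′ to the middle control had a mean of 2.77 ± 0.35 (SD, n = 3) on the 0 hours arrays and 1.99 ± 0.57 on the 2 hours arrays, then 1.19 ± 1.05 (3 days) and 1.07 ± 0.23 (14 days). The ratio of the 3′ to the 5′ control, given above, was instead lowest at 0 hours. The calls of the second ordinary probe set were lost at 3 days without 0 hours replicate 1 (adjusted p = 0.059) or 3 days replicate 3 (0.087), and at 14 days without 0 hours replicate 1 (0.11) or 14 days replicates 1, 2 or 3 (0.065, 0.087 and 0.071). Those of the middle control were lost at 3 days without 0 hours replicates 2 or 3 (0.052 and 0.053) or 3 days replicates 2 or 3 (0.086 and 0.11), and at 14 days without 0 hours replicates 1, 2 or 3 (0.059, 0.052 and 0.054) or 14 days replicates 2 or 3 (0.081 and 0.062).

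**Figure D3:**
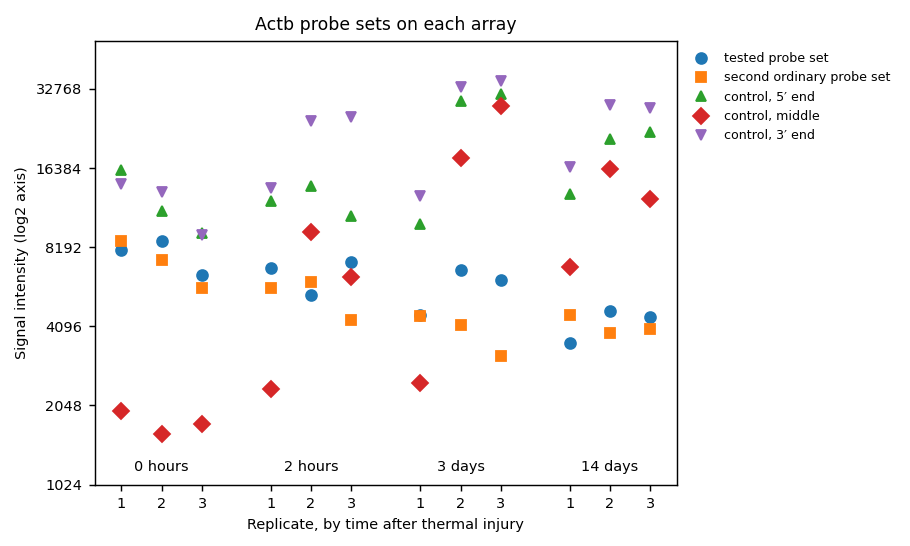
Signal on a log2 axis of 5 Actb probe sets on each of the 12 arrays, by time point and replicate: the tested and the second ordinary probe set and the controls for the 5′ end, the middle and the 3′ end. The control for the middle of the transcript lies at 1954 or under on the 0 hours arrays and at 6909 or above on the 14 days arrays, while both ordinary probe sets lie lower at 14 days than at 0 hours.

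Of 5 Arp2/3 complex genes tested, all had a positive log2 change at each time after injury, and 2 were called. Among all 3477 genes, 1898, 1800 and 1942 had a positive change at 2 hours, 3 days and 14 days, and these comparisons share the 0 hours arrays. Actr3, the Arp3 subunit that forms part of the first pair of actin-like units of a branch, had signals of 3210.5, 4975 and 2665 at 0 hours, 6227, 5907 and 6843 at 2 hours, 6179, 5946 and 7078 at 3 days and 5333, 5829 and 5485 at 14 days. Every later array was above every 0 hours array, and the later times lay close together. It rose 1.81-fold at 2 hours (0.85 ± 0.21, limma adjusted p = 0.033) and 1.83-fold at 3 days (0.87 ± 0.21, 0.016), and its change at 14 days was 0.67 (0.061). Arpc4, a core subunit that holds Arp2 and Arp3 together, had 1624, 1449 and 1696 at 0 hours, 2340.3, 1595 and 2269.6 at 2 hours, 2792, 3651 and 4086 at 3 days and 3525, 2824 and 2831 at 14 days. Its 3 and 14 days arrays were above all earlier arrays. Arpc4 rose 2.19-fold at 3 days (1.13 ± 0.21, 0.0028), 1.92-fold at 14 days (0.94 ± 0.21, 0.012) and 1.70-fold from 2 hours to 3 days (0.77 ± 0.21, 0.033).

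The other Arp2/3 subunits were not called. Arpc5 changed by 0.19, 0.56 (limma adjusted p = 0.09) and 0.69 (0.053) at 2 hours, 3 days and 14 days, Arpc1a by 0.36, 0.18 and 0.36, and Arpc2 by 0.17, 0.32 and 0.09. Differences between the subunits were not tested. The Actr3 call at 2 hours was lost without 0 hours replicates 1 or 3 (adjusted p = 0.076 and 0.1) or 2 hours replicates 1, 2 or 3 (0.078, 0.07 and 0.12), and that at 3 days without 0 hours replicate 1 (0.053) or 3 days replicate 3 (0.076). The Arpc4 call at 14 days was lost without 14 days replicate 1 (0.064), and that from 2 hours to 3 days without 2 hours replicates 2 or 3 (0.15 and 0.069) or 3 days replicates 2 or 3 (0.11 and 0.16).

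The group of 11 genes for monomer binding, severing and capping held 1 riser at 2 hours, 5 risers and 1 faller at 3 days, and 3 risers and 1 faller at 14 days. The cofilins went opposite ways. Cfl1, the non-muscle cofilin, had signals of 2194, 2049 and 3750.3 at 0 hours, 3257, 3208 and 3312 at 2 hours, 4743, 9449.8 and 9648 at 3 days and 7211, 6352 and 5730.0 at 14 days. Each 3 and 14 days array was above each earlier array, with 3 days replicate 1 the lowest of its group. Cfl1 rose 2.95-fold at 3 days (1.56 ± 0.28, limma adjusted p = 0.0021), 2.50-fold at 14 days (1.32 ± 0.28, 0.0096) and 2.32-fold from 2 hours to 3 days (1.21 ± 0.28, 0.014). Cfl2, the cofilin of muscle, had 1499, 1119 and 1453 at 0 hours, 1168, 1243 and 1067 at 2 hours, 936, 694 and 591 at 3 days and 654, 961 and 764 at 14 days. Its 3 and 14 days arrays were below all earlier arrays, and it fell by 0.89 ± 0.22 at 3 days (1.85-fold lower, 0.015) and by 0.78 ± 0.22 at 14 days (1.72-fold lower, 0.033). The muscle marker signal was 13.98 ± 0.38 at 0 hours, 12.72 ± 0.64 at 3 days and 12.91 ± 0.29 at 14 days. With that signal as a covariate the Cfl2 change was -0.31 at 3 days (limma adjusted p = 0.79) and -0.29 at 14 days (0.76). Beside the Gapdh ratio it was -0.53 (0.93) and -0.34 (0.95). The part of the muscle signal in the Cfl2 result was not tested further.

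Thymosins bind actin monomers and keep them from assembling. Tmsb4x had signals of 5555, 7749 and 5593 at 0 hours, 10765, 11842 and 10767 at 2 hours, 11628, 14096 and 14394 at 3 days and 10624, 10275 and 10601 at 14 days. All 9 later arrays were above all 0 hours arrays. It rose 1.79-fold at 2 hours (0.84 ± 0.18, limma adjusted p = 0.017), 2.14-fold at 3 days (1.10 ± 0.18, 0.0013) and 1.69-fold at 14 days (0.75 ± 0.18, 0.019). Tmsb10 had 6480.2, 5024 and 6330.3 at 0 hours, 6264, 4569 and 5557 at 2 hours, 8322, 12055 and 13526 at 3 days and 10844, 8466 and 7647 at 14 days. The 2 hours arrays overlapped those at 0 hours, while the 3 days arrays were above both groups. Tmsb10 rose 1.87-fold at 3 days (0.91 ± 0.22, 0.016) and 2.04-fold from 2 hours to 3 days (1.03 ± 0.22, 0.011), with 0.59 (0.1) at 14 days. The profilins, which load monomers onto filament ends, were not called between time points. Pfn1 had signals of 599, 401 and 437 at 0 hours and 312, 175 and 132 at 2 hours, where 2 of the 3 arrays were under the floor of 225.375 set on the signal, so its log2 change of -0.91 ± 0.26 (0.054) is limited by that floor. Its changes at 3 and 14 days were -0.08 and 0.13, on arrays from 309 to 618, and the F-test over time called it (0.030). Pfn2 changed by 0.06, -0.68 and -0.37.

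Capping proteins close the growing end of a filament. Capza1 had signals of 892, 1316 and 1037 at 0 hours, 1350.4, 1299 and 1291 at 2 hours, 1730.3, 1782 and 2334 at 3 days and 2049, 1667 and 1679.7 at 14 days. It rose 1.81-fold at 3 days (0.85 ± 0.20, limma adjusted p = 0.011) and 1.68-fold at 14 days (0.75 ± 0.20, 0.027), with no overlap with 0 hours. Capg, a capping protein abundant in macrophages, had 977, 1429 and 1426 at 0 hours, 1062, 879 and 1087 at 2 hours, 1712, 1991 and 2415 at 3 days and 2039.8, 1658 and 1913 at 14 days. It rose 1.60-fold at 3 days (0.68 ± 0.21, 0.042) and 2.01-fold from 2 hours to 3 days (1.01 ± 0.21, 0.0083), when the macrophage marker signal went from 9.83 ± 0.36 to 11.57 ± 0.33, and its 14 days change was 0.57 (0.09). The part of that marker signal in the Capg result was not tested. Capza2 changed by 0.33, 0.12 and -0.25 and Capzb by -0.07, 0.31 and 0.12 at 2 hours, 3 days and 14 days. A second Capzb probe set fell by 0.70 ± 0.22 at 14 days (0.049), opposite in sign to the tested one, and lost that call without any of 9 arrays (0.051 to 0.18). The array maker marks the tested Capzb probe set as shared by several transcripts and the second as shared by a gene family. Gelsolin, Gsn, which severs and caps filaments, changed by 0.14, -0.56 and -0.69 (0.11 at 14 days).

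Among these monomer-binding, severing and capping genes, several calls were lost with 1 array left out (limma adjusted p in parentheses). Cfl1 was lost at 14 days without 14 days replicate 1 (0.05), and from 2 hours to 3 days without 2 hours replicates 2 or 3 (0.053 and 0.053) or 3 days replicates 2 or 3 (0.074 and 0.079). Cfl2 was lost at 3 days without 0 hours replicate 1 (0.053) or 3 days replicates 2 or 3 (0.053 and 0.086), and at 14 days without 0 hours replicates 1 or 3 (0.11 and 0.07) or 14 days replicates 1 or 3 (0.14 and 0.079). Tmsb4x was lost at 2 hours without 0 hours replicate 1 (0.051) or 2 hours replicates 2 or 3 (0.061 and 0.06), and at 14 days without 0 hours replicate 1 (0.07) or 14 days replicates 1, 2 or 3 (0.069, 0.052 and 0.053). Tmsb10 was lost at 3 days without 3 days replicates 2 or 3 (0.063 and 0.089), and from 2 hours to 3 days without 2 hours replicate 2 (0.058) or 3 days replicates 2 or 3 (0.053 and 0.064). Capza1 was lost at 3 days without 3 days replicate 3 (0.068), and at 14 days without 0 hours replicate 1 (0.1) or 14 days replicates 1, 2 or 3 (0.11, 0.059 and 0.054). Capg was lost from 2 hours to 3 days without 3 days replicate 3 (0.051), and at 3 days it was kept without 0 hours replicates 2 or 3, 2 hours replicate 2 or 3 days replicate 1 and lost without any of the other 8 (0.052 to 0.19).

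Of 4 cross-linking and adhesion genes, Vcl was the 1 called. Vinculin, which reinforces the link of talin to actin at adhesions under tension, had signals of 1299, 1445 and 821 at 0 hours, 2221, 1718 and 2359 at 2 hours, 1662, 1420.0 and 1635 at 3 days and 1818, 1222 and 1334 at 14 days. Its 2 hours arrays were above every array at 0 hours and at 3 days. Vcl rose 1.80-fold at 2 hours (0.85 ± 0.24, limma adjusted p = 0.049), and its changes at 3 and 14 days were 0.44 and 0.31. That call was kept without 0 hours replicate 2 or 14 days replicate 1 and lost without any of the other 10 arrays (0.055 to 0.19). The alpha-actinins, which bundle filaments, were not called: Actn1 changed by 0.27, 0.34 and 0.23, and Actn4 by 0.03, -0.03 and 0.16. Talin, Tln1, changed by -0.36, -0.30 and -0.31 on its tested probe set. That probe set carries a mark of the array maker (_r), and the one given next carries none. Another Tln1 probe set had signals of 1348, 1093 and 1252 at 0 hours, 699, 549 and 571 at 2 hours, 970.1, 1589 and 1696 at 3 days and 1383, 1114 and 1013 at 14 days. It was low on the 2 hours arrays alone: it fell by 1.02 ± 0.23 at 2 hours (0.018) and rose by 1.19 ± 0.23 from 2 hours to 3 days (0.0052). The fall was lost without 0 hours replicate 1 (0.051) or 2 hours replicates 2 or 3 (0.069 and 0.077).

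Of 8 contraction genes, 3 rose at 3 days and 2 at 14 days, and none of the 3 is a smooth muscle marker. Myh9, the heavy chain of non-muscle myosin IIA, had signals of 1249.7, 1838 and 1458 at 0 hours, 3337, 1176 and 1504 at 2 hours, 3289, 4809.6 and 3908 at 3 days and 4788, 4047 and 4488 at 14 days. The 2 hours group was split, with replicate 1 alone at the 3 days level. Myh9 rose 2.64-fold at 3 days (1.40 ± 0.31, limma adjusted p = 0.0086), 2.96-fold at 14 days (1.57 ± 0.31, 0.0076) and 2.19-fold from 2 hours to 3 days (1.13 ± 0.31, 0.034), where the groups overlapped. A second Myh9 probe set was not called, at 0.74 (0.066) and 0.40 for 3 and 14 days. The call from 2 hours to 3 days was lost without 2 hours replicates 2 or 3 (0.16 and 0.14) or 3 days replicates 2 or 3 (0.13 and 0.1).

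Transgelin-2, Tagln2, a calponin-family actin binder of non-muscle cells, had signals of 2869.5, 2863 and 3041 at 0 hours, 4258, 2586 and 3525 at 2 hours, 5519, 5824 and 7540.5 at 3 days and 6534, 4820.0 and 4729 at 14 days. It rose 2.13-fold at 3 days (1.09 ± 0.22, limma adjusted p = 0.0048), 1.81-fold at 14 days (0.86 ± 0.22, 0.023) and 1.84-fold from 2 hours to 3 days (0.88 ± 0.22, 0.021). Cnn2, a calponin of non-muscle cells, had 224, 479 and 435 at 0 hours, 576, 508 and 408 at 2 hours, 549, 759 and 836 at 3 days and 728, 633 and 616 at 14 days. It rose 1.95-fold at 3 days (0.96 ± 0.27, 0.028), with 0 hours replicate 1 set to the floor, and its 14 days change was 0.86 (0.054). For both genes every 3 and 14 days array was above every 0 hours array. The smooth muscle genes of this group were not called: Acta2, the actin of smooth muscle and myofibroblasts, changed by -0.28, -0.19 and -0.10 (SE 0.29 each), Tagln by -0.06, -0.19 and 0.35, Actg2 by 0.04, -0.09 and -0.27, and Myl9 by -0.03, -0.69 (0.063) and -0.41. The 2 smooth muscle and pericyte markers tested outside this group had a mean log2 signal of 10.44 ± 0.18 (SD) at 0 hours. It was 10.24 ± 0.28 (2 hours), 9.79 ± 0.23 (3 days) and 9.68 ± 0.40 (14 days), and 1 of the 2 fell at 14 days. Cnn3 changed by 0.44, 0.22 and 0.47 (0.087 at 14 days). The Tagln2 call was lost at 14 days without 0 hours replicate 1 (0.064) or 14 days replicate 1 (0.11), and from 2 hours to 3 days without 2 hours replicates 2 or 3 (0.1 and 0.064) or 3 days replicates 2 or 3 (0.056 and 0.12). The Cnn2 call was lost without 0 hours replicate 1 (0.1, log2 change 0.62) or 3 days replicates 2 or 3 (0.089 and 0.12).

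Ezrin and moesin are close relatives that tie actin filaments to membrane proteins, and their signals were highest at different times. Ezr, the form typical of epithelia, had signals of 834, 914 and 691 at 0 hours, 1498, 1160.2 and 1383 at 2 hours, 863, 777 and 938 at 3 days and 1197, 904 and 1248 at 14 days. Its 2 hours arrays were above every array at 0 hours and 3 days. Ezr rose 1.66-fold at 2 hours (0.73 ± 0.19, limma adjusted p = 0.042) and was not called at 3 days (0.09) or 14 days (0.45), and its change from 2 hours to 3 days was -0.64 ± 0.19 (0.051). Msn, the form typical of leukocytes and endothelium, had 898, 1854 and 1166 at 0 hours, 1598, 1558 and 1359 at 2 hours, 2515, 2684 and 4104 at 3 days and 3231, 2098 and 2179.5 at 14 days. Its 3 and 14 days arrays were above all earlier ones. Msn rose 2.42-fold at 3 days (1.28 ± 0.27, 0.0074), 1.97-fold at 14 days (0.98 ± 0.27, 0.035) and 2.02-fold from 2 hours to 3 days (1.01 ± 0.27, 0.032). The macrophage marker signal was 9.83 ± 0.36 at 2 hours, 11.57 ± 0.33 at 3 days and 10.21 ± 0.08 at 14 days, and its part in the Msn result was not tested. The difference between the 2 genes' changes was not tested. The Ezr call was kept without 0 hours replicate 2, 3 days replicates 1 or 3 or 14 days replicate 2 and lost without any of the other 8 arrays (0.052 to 0.14). The Msn call was lost at 14 days without 0 hours replicates 1 or 3 (0.14 and 0.075) or 14 days replicates 1, 2 or 3 (0.15, 0.056 and 0.057), and from 2 hours to 3 days without 2 hours replicates 1, 2 or 3 (0.064, 0.085 and 0.13) or 3 days replicates 2 or 3 (0.069 and 0.17).

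**Figure D4:**
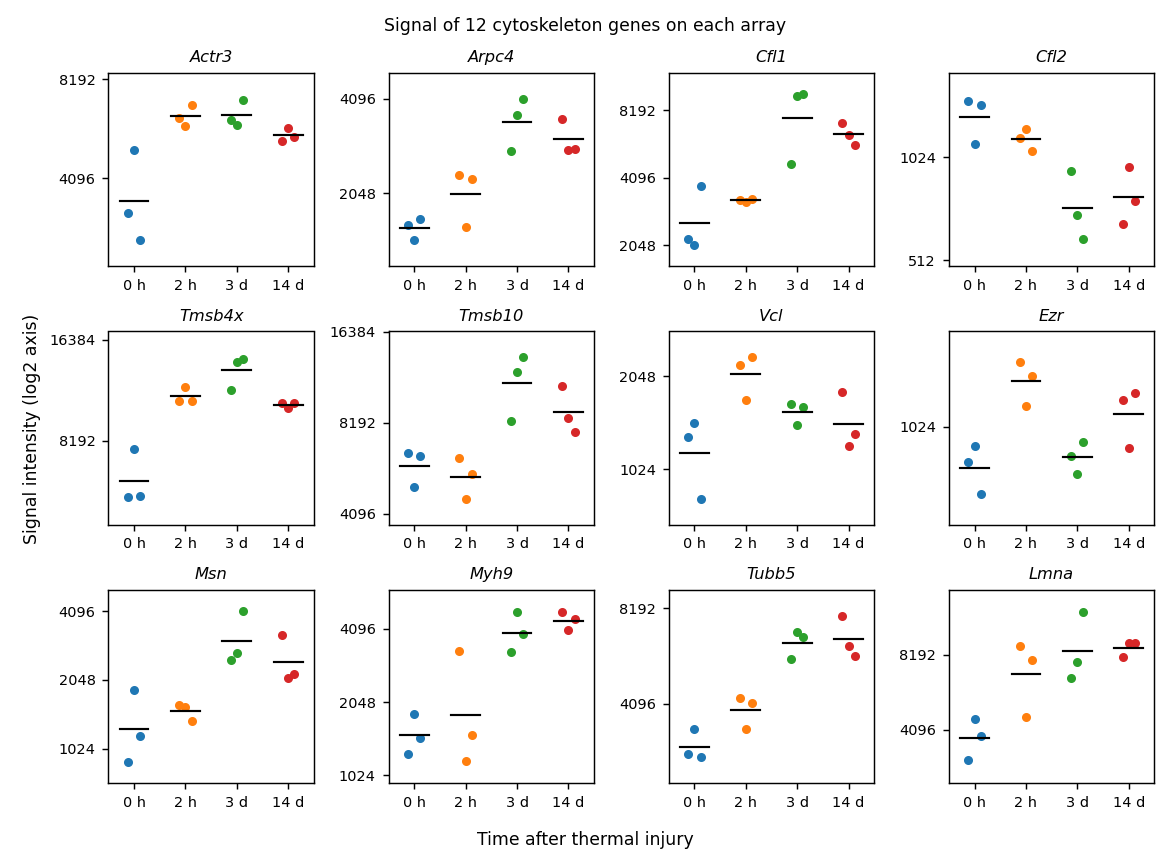
Signal on a log2 axis of 12 of the genes on each array (points) by time after injury, with the mean of the log2 signals of the 3 arrays as a bar. Tmsb4x and Actr3 are already high at 2 hours, Vcl and Ezr stand highest at 2 hours, and Cfl1, Msn, Tubb5 and Tmsb10 are higher on all 3 days arrays than on all 2 hours arrays, while Cfl2 is lower.

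Of 8 tubulin genes, 3 rose at 3 days and 2 at 14 days, all of them beta-tubulins. For 6 of the 8 the tested probe set is one that the array maker marks as shared by a gene family, so the signal of 1 tubulin may hold that of its relatives; the same mark is on the tested probe sets of Actb, Actg2, Actn1 and Cnn3. Tubb5, the main beta-tubulin of dividing cells, had signals of 2847, 3406 and 2786 at 0 hours, 4285, 3400.4 and 4122 at 2 hours, 5653, 6902 and 6656 at 3 days and 7749, 6236 and 5788 at 14 days. All 3 and 14 days arrays were above all earlier arrays. It rose 2.13-fold at 3 days (1.09 ± 0.19, limma adjusted p = 0.0017), 2.18-fold at 14 days (1.12 ± 0.19, 0.0024) and 1.63-fold from 2 hours to 3 days (0.70 ± 0.19, 0.03). A second Tubb5 probe set, which carries another mark of the array maker (_r), rose by 1.44 ± 0.32 (0.0093) and 1.55 ± 0.32 (0.0087) at 3 and 14 days. Whether it is specific to Tubb5 was not tested.

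Tubb6, a beta-tubulin found in many tissues, had signals of 1356, 1624 and 1983 at 0 hours, 2448, 1587 and 2619 at 2 hours, 3037, 3556 and 4082 at 3 days and 2480.2, 1856 and 1517 at 14 days. It rose 2.16-fold at 3 days (1.11 ± 0.24, limma adjusted p = 0.0086), with 0.23 at 14 days. The drop from 3 to 14 days, on arrays that did not overlap, was -0.89 ± 0.24 and was not called (0.069). Tubb2a had 1094, 1777 and 1483 at 0 hours, 1836, 1271 and 1437 at 2 hours, 1923, 2646 and 4817 at 3 days and 3039, 1843 and 2199 at 14 days. It rose 2.04-fold at 3 days (1.03 ± 0.31, 0.04) on a wide group, and its 14 days change was 0.70 (0.15). Tubb3, the class III beta-tubulin best known from neurons, had 1689.8, 1372 and 1787 at 0 hours, 1433, 1580.3 and 1714 at 2 hours, 2046, 1745 and 2183 at 3 days and 2639, 2357 and 2429 at 14 days. Its 14 days arrays were above all other arrays, and it rose 1.54-fold at 14 days (0.62 ± 0.18, 0.038).

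No alpha-tubulin was called between time points in the fit on all arrays. Tuba1a changed by -0.14, 0.50 and 0.48 at 2 hours, 3 days and 14 days, and its second probe set by -0.33 and -0.21 at 3 and 14 days. Tuba1c changed by 0.01, 0.60 (limma adjusted p = 0.053) and 0.63 (0.053), and the F-test over time called it (0.030). Tuba4a changed by -0.58, -0.70 (0.063) and -0.72 (0.063), and was called lower at 14 days with quantile normalization. Tuba8 changed by -0.08, -0.29 and -0.01. The Tubb5 call from 2 hours to 3 days was lost without 2 hours replicates 2 or 3 (0.13 and 0.079) or 3 days replicates 2 or 3 (0.12 and 0.12). Tubb2a was lost at 3 days without 0 hours replicates 1 or 3 (0.13 and 0.067), 2 hours replicate 3 (0.055), 3 days replicate 2 (0.075), 3 days replicate 3 (0.2, log2 change 0.66) or 14 days replicate 3 (0.052). The Tubb3 call was kept without 0 hours replicate 3, 2 hours replicate 1 or 3 days replicates 1 or 3 and lost without any of the other 8 arrays (0.051 to 0.13). The Tubb6 drop from 3 to 14 days was called without 2 hours replicate 2 or 14 days replicate 1.

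Lmna, which encodes lamins A and C of the nuclear lamina, was the 1 lamin tested. Its signals were 3090.2, 4529.5 and 3886 at 0 hours, 8917, 4594 and 7822 at 2 hours, 6634, 7683 and 12137 at 3 days and 8008, 9128 and 9125 at 14 days. Every later array was above every 0 hours array, with 2 hours replicate 2 only just so. Lmna rose 2.25-fold at 3 days (1.17 ± 0.27, limma adjusted p = 0.012) and 2.31-fold at 14 days (1.21 ± 0.27, 0.013), and its 2 hours change was 0.85 (0.079). The tested probe set is one that the array maker marks as shared by several transcripts, so it may hold signal of others. A second Lmna probe set, without such a mark, changed by 0.25 and 0.34 at 3 and 14 days and was not called. The call at 3 days was lost without 3 days replicate 3 (0.069), and that at 14 days without 0 hours replicate 1 (0.057).

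Genes that act on the same filaments but lie outside the symbol rule were given as 3 lists. Of 65 listed actin regulators 40 were tested: 2 rose and 2 fell at 2 hours, 9 rose and 2 fell at 3 days, 4 rose and 1 fell at 14 days, 9 rose from 2 hours to 3 days and 1 fell from 3 to 14 days. The share called higher was 5% at 2 hours, near the 4% of all genes, 22.5% at 3 days against 8.89%, 10% at 14 days against 6.9%, and 22.5% from 2 hours to 3 days against 6.1%. Their median log2 changes were -0.04, 0.30, 0.07, 0.22 and -0.07 in that order, against 0.05, 0.02, 0.05, -0.03 and 0.05 for all genes. The gene with the smallest p in each comparison was Pdlim7, an adaptor on actin filaments, at 2 hours (fell by 1.52 ± 0.27, limma adjusted p = 0.0042), the filament bundler Fscn1 at 3 days (1.39 ± 0.28, 0.0047) and from 2 hours to 3 days, Marcksl1, an actin-binding membrane protein, at 14 days (1.63 ± 0.35, 0.0098), and the leukocyte plastin Lcp1 from 3 to 14 days (fell by 1.31 ± 0.26, 0.01). The Lcp1 call was lost without 3 days replicate 3 (0.055).

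Of 44 listed microtubule-associated genes 20 were tested, and the shares called higher, 5% at 2 hours and 10% at 14 days, were near the 4% and 6.9% of all genes. The chaperonin subunit Cct8, which helps fold actin and tubulin, rose by 0.83 ± 0.19 at 2 hours (limma adjusted p = 0.023), a call lost without 0 hours replicates 1 or 3 (0.067 and 0.051) or 2 hours replicates 1, 2 or 3 (0.061, 0.073 and 0.076). At 3 days 0 were called (limma; 8 had an unadjusted p under 0.05). At 14 days 2 rose, Stmn1, which binds tubulin dimers, by 2.18 ± 0.35 (0.0018) and the chaperonin subunit Cct3 by 0.86 ± 0.20 (0.015). From 2 hours to 3 days Clip1, a protein of growing microtubule ends, fell by 1.14 ± 0.23 (0.0074). Of 20 listed genes of other intermediate filaments and the lamina 10 were tested, so that 1 gene is 10% of them. Tmpo, which encodes lamina-associated polypeptides, rose at 14 days by 1.03 ± 0.23 (0.013), a call lost without 0 hours replicate 1 (0.053) or 14 days replicate 1 (0.064), and rose from 3 to 14 days by 1.29 ± 0.23 (0.0047). From 2 hours to 3 days the filament gene Nes rose by 1.08 ± 0.28 (0.028) and Sun2 of the nuclear envelope fell by 0.67 (0.049). The Nes call was lost without 2 hours replicates 1 or 2 (0.088 and 0.11) or 3 days replicates 2 or 3 (0.079 and 0.14).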

How the data were processed

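The deposited values are signal intensities, 1 per probe set and array, on a linear scale (7275 probe sets, 12 arrays). How the authors made them from the scans and scaled them is not given in the sources used here. Genes were named through GEO's platform annotation: 6551 probe sets named 1 gene, 251 several and 446 none, and 27 were array controls. Intensities were used unscaled, set to a floor at the pooled 25th percentile (225.375), log2-transformed and filtered, keeping probe sets that exceeded the pooled median (475.55) on 3 or more arrays; the kept probe set with the highest mean stood for its gene. Fold changes are therefore limited near the floor, and signals of different probe sets were not compared. limma 3.58.1 (R 4.3.3; lmFit, eBayes; 8 residual and 6.64 prior degrees of freedom) was fitted on all 12 arrays with 1 coefficient per time point and tested on simulated data, with Benjamini-Hochberg adjustment over 3477 genes. The simulated noise was drawn independently for each gene, without shared drifts in RNA integrity or muscle signal, and its outcome is not given here. Values after ± are SE unless named SD. With 3 against 3 arrays an exact permutation test cannot go below 0.1.

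Every gene was named; those called in any comparison are given with all arrays, the rest by log2 change in groups by role, and for the other lists the called gene of smallest p. Genes and lists were chosen with earlier results of these data known. Alternatives covered normalization, floor, filter, probe set, variance model, covariates, a replicate block and each array left out. Keeping the beta-actin controls and testing each probe set by itself were chosen after seeing the data. Arrays with the same replicate number were not paired: in 18 such pairs the deviations from the group means correlated above 0.1 for 2 (median -0.066). Promoter sequences are from RefSeq (GRCm38.p6). Scripts ran in Python 3.11.15 with pandas 2.3.3 and matplotlib 3.10.9.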

Additional observations from a re-analysis of the deposited data

How the results depend on the processing

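Counts of cytoskeleton genes called are given in the order 2 hours, 3 days and 14 days against 0 hours, then 3 days against 2 hours; the main counts were 4, 16, 12 and 8, and 20 by the F-test over time. With the Gapdh 3′ to 5′ ratio as a covariate they were 1, 0, 0 and 0 (limma; 4, 2 and 2 had an unadjusted p under 0.05 where 0 were called), and 1 by the F-test, Pfn1; over all genes this fit called 4 at 3 days and 2 at 14 days. At 2 hours the 1 gene called in the Gapdh fit was also Pfn1, which the main fit did not call at 2 hours. That fit kept 0 of the 40 single calls. With the muscle markers as a covariate the counts were 1, 0, 0 and 0 (4, 4 and 9 unadjusted), and 0 by the F-test. The 1 was Tmsb4x at 2 hours, the 1 kept of the 40 single calls. Fitted on only the time points compared, they were 0 (9 unadjusted) at 2 hours, 9 at 3 days and 5 at 14 days. Quantile normalization left 2 at 2 hours. With no filter 2 were called at 2 hours, Tmsb4x and the newly called Actg1, and 3 from 2 hours to 3 days. With each array left out in turn the counts ranged from 0 to 6, 8 to 19, 3 to 15 and 0 to 12, from 0 to 1 for 14 against 3 days (Tubb6), and from 14 to 24 by the F-test. With the replicate number as a block, although the numbers did not pair the arrays, the counts were 1, 15, 10 and 5; the lost calls were Actr3 (adjusted p = 0.053), Ezr (0.059) and Vcl (0.061) at 2 hours, Capg (0.052) and Tubb2a (0.054) at 3 days, Cfl2 (0.052), Msn (0.056) and Tubb3 (0.051) at 14 days, and Msn (0.054), Myh9 (0.053) and Tubb5 (0.054) from 2 hours to 3 days, and Tuba4a was gained at both 3 and 14 days. Of the 40 single calls, 17 were lost with no filter, 20 with only the time points compared, 3 with quantile normalization, 2 with median scaling, 1 with the floor at the 10th percentile and 2 with the probe set of highest variance. Signs turned for Tubb2a at 3 days with the muscle covariate (-0.18, adjusted p = 0.92) and for Actb at 14 days with the control probe sets kept (0.98, 0.1); in the latter another probe set stands for Actb. The cause of the other changes was not tested. The scalings moved the median of all genes by at most 0.06 (log2). With 3 arrays a group, their number limits the precision.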

Other observations

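The 3 probe sets that name a cytoskeleton gene together with other genes were tested by themselves and none was called. The one for Tuba1a, Tuba1b, Tuba1c and Gm5620 changed by 0.40 ± 0.18 at 14 days (limma adjusted p = 0.16), and the one for Arpc1b and Gm5637 by 0.63 ± 0.23 at 3 days (0.078). The third names Tuba3a and Tuba3b.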
